A study of Mus musculus with 14 samples.

Results

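Transcript levels of 8 genes of sterol sensing and cholesterol uptake (Srebf2, Insig1, Insig2, Scap, Stard4, Npc1l1, Mylip and Scarb1) were examined in mouse liver across 2 sexes and 3 ages. The genes were chosen by name, and their probes were those whose RefSeq accession maps to these symbols, which gave 13 probes for 8 genes among 39429 probes and 19751 named genes on the array. Liver RNA came from CD-1 mice, an outbred strain, aged 3, 4 or 8 wk, males (M3, M4, M8) and females (F3, F4, F8), and the labels name no treatment, transgene or deletion in any group. Each pool combined 5 livers at 3 wk and 6 livers at 4 and 8 wk, so the spread between individual mice was not measured. There were 7 comparisons, 3 between the sexes (M3/F3, M4/F4 and M8/F8), 2 between ages in males (M8/M3 and M8/M4) and 2 between ages in females (F8/F3 and F8/F4), each with 2 arrays on which separate pools competed with the dyes exchanged, 14 arrays in all. Animals were bought as pups with surrogate mothers, and neither the time of death nor the feeding state is given in the sources used here.

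Animal cells hold their cholesterol within narrow limits through a feedback loop in the membrane of the endoplasmic reticulum. SREBP2, the product of Srebf2, is a transcription factor held there as a precursor by its escort SCAP, and the sterol-dependent anchors INSIG1 and INSIG2 retain the pair when sterols are plentiful. When sterols fall, SCAP carries SREBP2 to the Golgi apparatus, where proteases release the active factor, which turns on cholesterol synthesis, STARD4 and INSIG1 itself. Insig2 in liver is known for a transcript that does not follow SREBP2 in the way Insig1 does. MYLIP, also called IDOL, is a ubiquitin ligase induced by the sterol receptor LXR that marks lipoprotein receptors for degradation. SCARB1, or SR-BI, is the hepatic HDL receptor that takes up cholesteryl ester, and NPC1L1 imports free sterol at the surface of enterocytes.

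A gene was called when limma's moderated test gave an adjusted p below 0.05 and the ratio of the groups was above 1.5 or below 0.667. At least 1 of both groups had to be well above background on both arrays. A ratio above 1 stands for the first-named group being higher, and errors are standard errors of the fitted log2 ratio. Each comparison had n = 2 arrays, but the spread of a probe was estimated over all 14 arrays together. An error is therefore not the spread of the 2 arrays quoted beside it. The shares of spots well above background were 57.8% to 77.2% in the red channel and 55.2% to 69.6% in the green channel, and the number of arrays limits the precision. The tissue label held: all 8 hepatocyte markers examined, among them Alb and Ttr, were well above background in 28 of 28 channels. Of the 8 genes described here, 7 were well above background in 28 of 28 channels and were testable in every comparison. Npc1l1 was not.

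Scarb1 rose in males, where adult liver held 1.53-fold the level at 3 wk and 1.64-fold the level at 4 wk, and its differences in females were not called. It was called in 2 of 7 comparisons, Insig2 was called in 1, and no other of the 8 genes was called in any. Smaller differences passed the adjusted p without the ratio: Srebf2 was lower in males than in females at 4 and 8 wk, and Scap was higher at 8 wk than at 3 wk in both sexes. Among the 7 testable genes, the log2 ratios of Insig1 had the largest SD over the 14 arrays (0.62). Insig1 also had the widest spread between replicate arrays, and none of its differences passed.

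**Figure D1:**
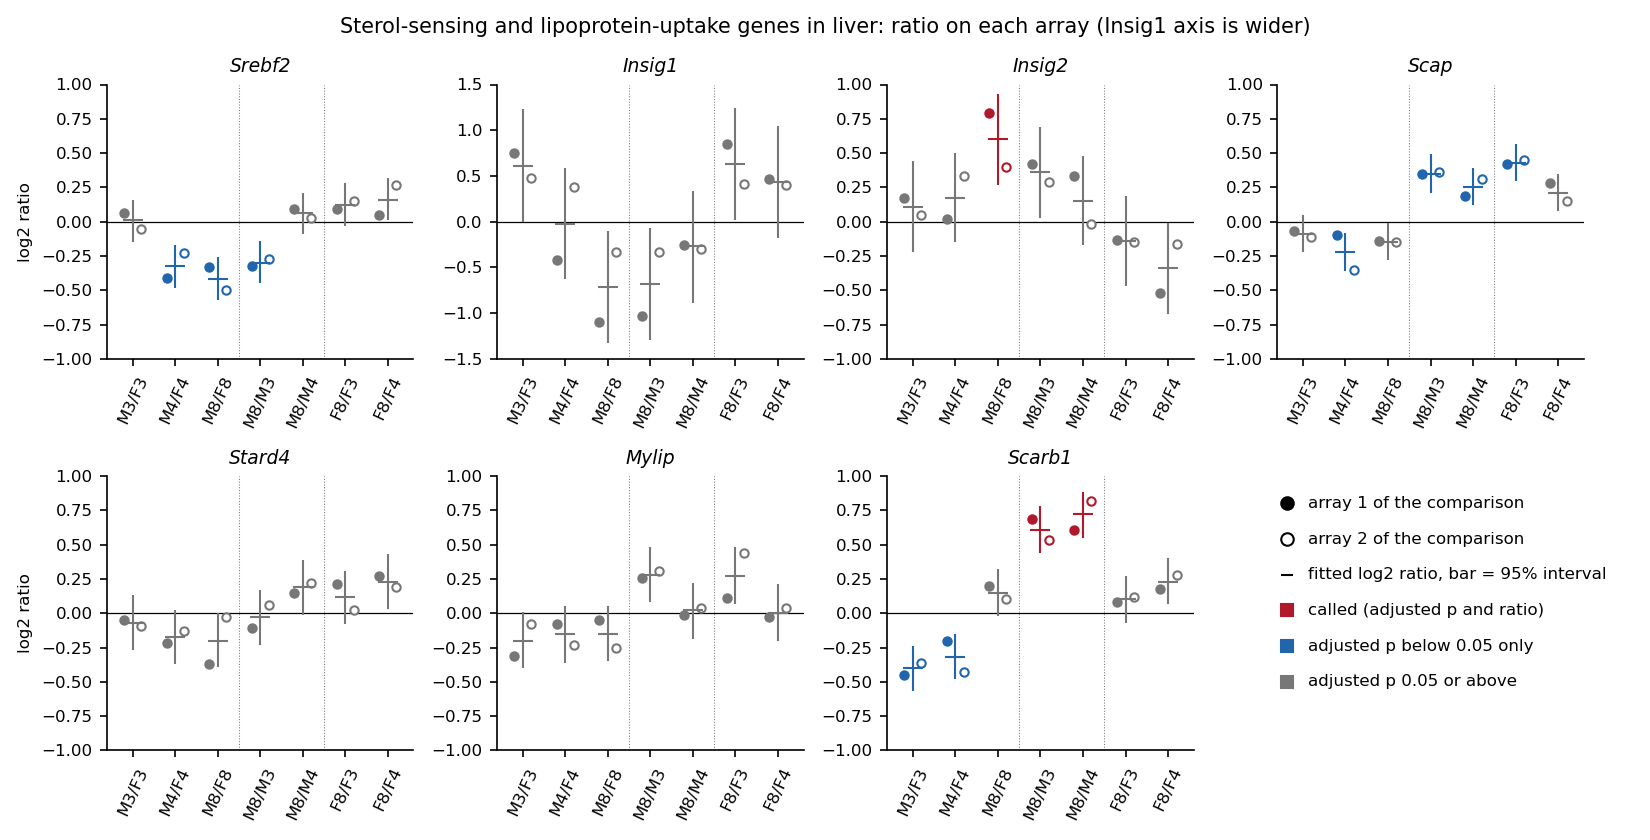
Log2 ratio (y axis) in each of the 7 comparisons (x axis) for the 7 genes above background; filled and open circles are arrays 1 and 2, horizontal marks the fitted ratio and vertical bars its 95% interval. The only red marks, which stand for calls, are Insig2 in M8/F8 and Scarb1 in M8/M3 and M8/M4; the Insig1 panel has a wider axis.

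In the comparisons between the sexes, 0 of 7 testable genes were called in M3/F3, where 2 had an unadjusted p below 0.05 (11.8% of all genes did) and the error-weighted average called 1. Over all genes, 0.180% were called higher and 0.337% lower in M3/F3, and 2.88% passed the adjusted p at any ratio, as did 1 of the 7 (Scarb1). In M4/F4, 0 were called by limma, 3 had an unadjusted p below 0.05 (21.0% of all genes) and the error-weighted average called 0. Over all genes the shares in M4/F4 were 0.619% called higher and 0.971% called lower, and 7.91% passed the adjusted p at any ratio, against 3 of the 7 (Srebf2, Scap and Scarb1). In M8/F8, 1 of 7 was called higher (Insig2), 2 passed the adjusted p (Srebf2 and Insig2) and 5 had an unadjusted p below 0.05 (39.9% of all genes). The error-weighted average called 2 there. Over all genes in M8/F8, 2.67% were called higher and 3.75% lower, and 21.8% passed the adjusted p; 2 of 7 is near that share.

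In the comparisons between ages, 1 of 7 was called higher in M8/M3 and in M8/M4, in both cases Scarb1, and 6 and 2 had an unadjusted p below 0.05 (60.0% and 47.9% of all genes). The error-weighted average called 2 in M8/M3 and 1 in M8/M4. Over all genes in M8/M3, 7.84% were called higher and 10.0% lower, and 42.0% passed the adjusted p at any ratio, as did 3 of the 7 (Srebf2, Scap and Scarb1). In M8/M4 the shares were 4.46% called higher, 6.39% called lower and 29.6% past the adjusted p, against 2 of the 7 (Scap and Scarb1). In females, 0 were called in F8/F3, where 3 had an unadjusted p below 0.05 (51.8% of all genes), the error-weighted average called 1 and Scap alone passed the adjusted p. Over all genes in F8/F3, 5.09% were called higher, 6.65% lower and 33.7% passed the adjusted p. In F8/F4, 0 were called by limma or by the error-weighted average and 0 passed the adjusted p, while 5 had an unadjusted p below 0.05 (39.4% of all genes). The shares over all genes in F8/F4 were 2.29% called higher, 3.73% lower and 21.3% past the adjusted p.

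Scarb1, the HDL receptor, was measured by a bright probe and by a dimmer one, both to the same RefSeq transcript. On the bright probe the normalised log2 intensities of the 2 replicates were 13.47 and 13.72 in M3, 13.53 and 13.37 in M4, and 14.19 and 14.18 in M8. In females they were 13.94 and 14.00 in F3, 13.78 and 13.78 in F4, and 14.05 and 14.07 in F8. The male levels at 3 and 4 wk lay below all other levels and did not overlap with them, whereas the adult levels of the sexes lay close together.

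The log2 ratio of Scarb1 was 0.69 and 0.53 on the 2 arrays of M8/M3, with a fitted value of 0.61 ± 0.07 (1.53-fold, adjusted p = 0.0022). In M8/M4 the arrays gave 0.61 and 0.82 and the fit 0.72 ± 0.07 (1.64-fold, adjusted p = 0.00122). In females neither age comparison passed. F8/F3 gave 0.08 and 0.12, with a 95% interval of -0.07 to 0.27 and an adjusted p of 0.46 in limma. F8/F4 gave 0.18 and 0.28, a fitted 0.23 that did not pass (adjusted p = 0.0763). In M3/F3 the arrays read -0.45 and -0.36, and the fitted -0.40 ± 0.07 passed the adjusted p (0.0109) without passing the ratio. M4/F4 gave -0.20 and -0.43, and the fitted -0.32 also passed the adjusted p alone (0.027). Over the alternatives run these values were -0.49 to -0.31 in M3/F3 and -0.42 to -0.22 in M4/F4. Both passes were lost under some alternatives. In M8/F8 the arrays gave 0.20 and 0.10, and the difference did not pass (adjusted p = 0.233).

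The difference between the sexes in the change of Scarb1 from 3 to 8 wk was 0.51 ± 0.10 on the log2 scale (adjusted p = 0.0406 in limma), short of the ratio threshold. It no longer passed with the slide as a block (adjusted p = 0.0569), the replicate number as a block (0.0597), shared pools in the covariance (0.0773) or the mean of all probes (0.0822), or without any 1 of the 4 arrays (0.0534 to 0.176). The M8/M3 and F8/F3 arrays were scanned on different days. The same contrast taken from M8/F8 and M3/F3, which were scanned on 1 day, was 0.55; the part of the scan day was not tested. From 4 to 8 wk the contrast was 0.48 (adjusted p = 0.0821), from arrays that shared slides. The dimmer probe gave 0.64 and 0.64 in M8/M3 and was called there as well (adjusted p = 0.0103). In M8/M4 it gave 0.32 and 0.82, which passed the adjusted p (0.0161) with a ratio of 1.49 that stayed just under the threshold, and its sex differences at 3 and 4 wk did not pass (adjusted p = 0.166 and 0.11). Its contrast between the sexes from 3 to 8 wk was 0.41 (adjusted p = 0.226). Without array 1 the M8/M3 value of the bright probe was 0.48, under the ratio threshold.

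The genes whose log2 ratios over the 14 arrays were most like those of Scarb1 were Gfra1 (Pearson r = 0.991), Cyp46a1 (r = 0.974) and Vps39 (r = 0.964), among 3085 bright and variable genes. Cyp46a1 encodes a cholesterol 24-hydroxylase and Gfra1 a receptor for a glial growth factor. The 14 arrays share groups, and possibly pools, so that these coefficients describe the arrays and carry no p.

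**Figure D2:**
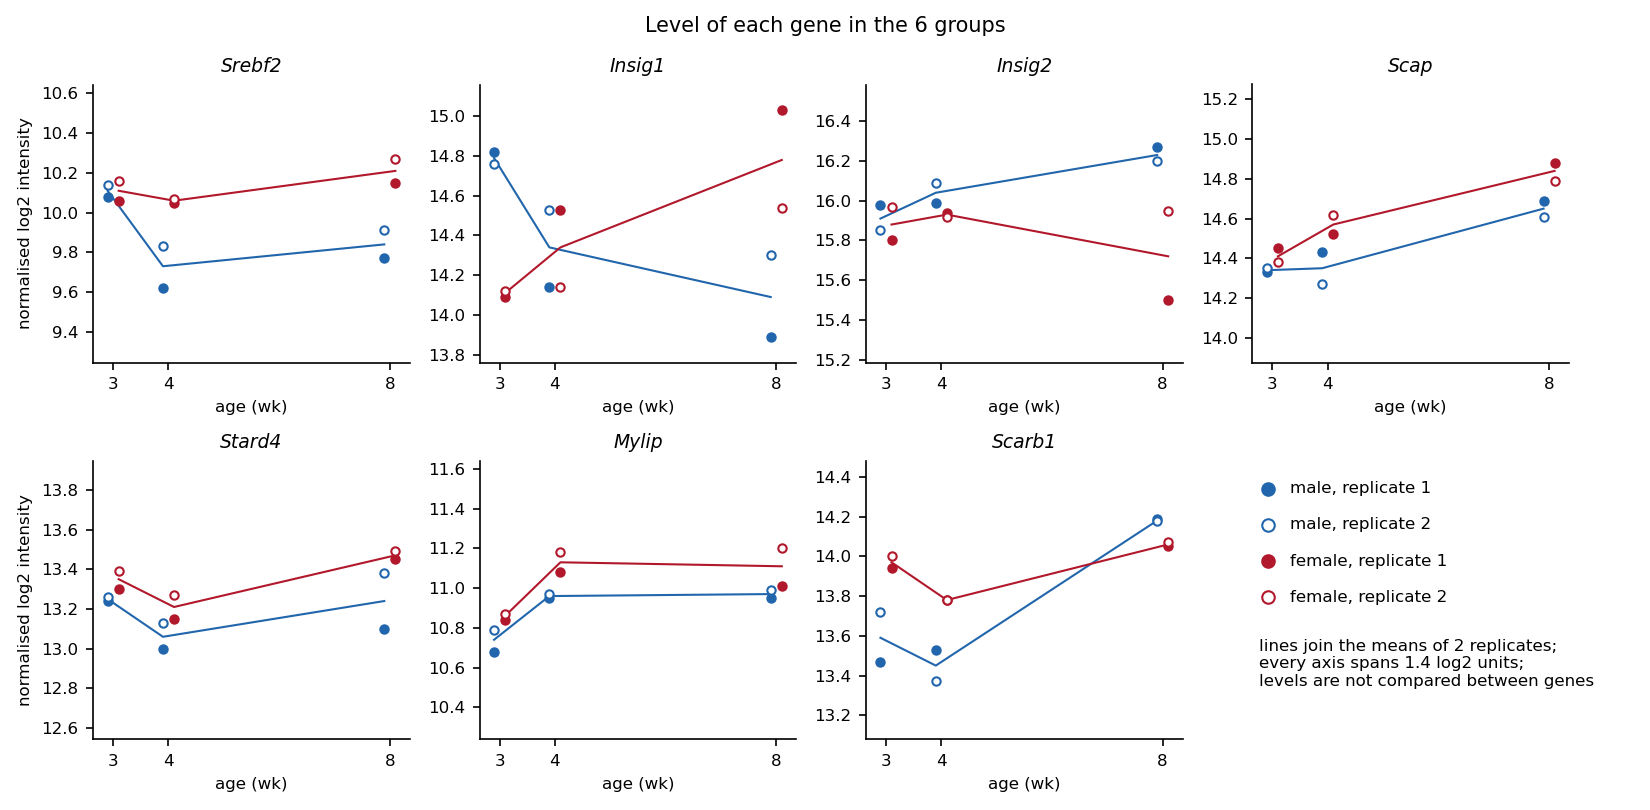
Normalised log2 intensity (y axis) against age in weeks (x axis) for the 7 genes above background; circles are the 2 replicates of each group, filled for replicate 1 and open for replicate 2, and lines join their means (blue, males; red, females). Scarb1 in males rises to 14.19 and 14.18 at 8 wk, the Insig1 lines cross (none of its differences passed), and the 2 Insig2 values of F8, 15.50 and 15.95, lie apart.

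Of the anchors of the SREBP pathway, Insig2 was called in 1 comparison and Insig1 in none. Insig2 was higher in males than in females at 8 wk and was the only gene of the 8 that was called between the sexes. Because both M8/F8 arrays were negative for Srebf2 and Insig1 and positive for Insig2, the RefSeq promoter windows (build GRCm38.p6, 250 bases before to 50 after the start) of these 3 genes are shown with matches in capitals to the NF-Y box (CCAAT, or ATTGG on the second strand) and the E-box CACGTG.
Srebf2 (chr15:82147019-82147318, plus strand): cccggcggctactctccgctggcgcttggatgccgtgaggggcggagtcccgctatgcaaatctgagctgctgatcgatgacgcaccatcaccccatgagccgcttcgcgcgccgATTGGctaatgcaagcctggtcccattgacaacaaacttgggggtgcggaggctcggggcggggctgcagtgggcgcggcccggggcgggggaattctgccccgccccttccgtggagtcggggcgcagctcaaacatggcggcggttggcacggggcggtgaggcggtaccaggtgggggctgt
Insig1 (chr5:28071162-28071461, plus strand): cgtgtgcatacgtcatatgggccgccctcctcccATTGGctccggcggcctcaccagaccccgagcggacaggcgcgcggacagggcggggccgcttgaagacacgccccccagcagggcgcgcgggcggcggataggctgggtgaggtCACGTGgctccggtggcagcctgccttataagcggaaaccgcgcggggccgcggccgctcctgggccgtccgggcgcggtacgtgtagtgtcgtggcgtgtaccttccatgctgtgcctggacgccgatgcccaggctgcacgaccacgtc
Insig2 (chr1:121332540-121332839, minus strand): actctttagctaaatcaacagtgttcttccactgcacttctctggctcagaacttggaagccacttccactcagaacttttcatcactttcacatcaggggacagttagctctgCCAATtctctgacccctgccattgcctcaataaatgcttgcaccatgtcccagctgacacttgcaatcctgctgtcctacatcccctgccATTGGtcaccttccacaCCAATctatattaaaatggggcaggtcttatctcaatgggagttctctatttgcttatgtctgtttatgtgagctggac
Insig2 (chr1:121327975-121328274, minus strand): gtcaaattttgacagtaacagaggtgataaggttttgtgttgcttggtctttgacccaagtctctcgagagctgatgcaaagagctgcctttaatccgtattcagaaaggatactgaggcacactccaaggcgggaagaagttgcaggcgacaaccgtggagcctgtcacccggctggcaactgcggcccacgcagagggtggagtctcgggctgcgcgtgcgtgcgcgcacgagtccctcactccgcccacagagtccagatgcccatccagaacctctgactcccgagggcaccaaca
Insig2 (chr1:121327629-121327928, minus strand): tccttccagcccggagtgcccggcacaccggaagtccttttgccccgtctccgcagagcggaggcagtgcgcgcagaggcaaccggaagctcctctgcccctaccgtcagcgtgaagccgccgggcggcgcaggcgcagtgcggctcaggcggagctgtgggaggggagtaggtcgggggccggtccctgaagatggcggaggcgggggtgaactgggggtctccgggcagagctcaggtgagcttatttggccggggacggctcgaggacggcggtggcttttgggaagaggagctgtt
Windows of 6 of the 8 genes were used, 9 in all, and none was used for Stard4 or Scarb1. The 9 windows were searched on both strands for those motifs and for the sterol regulatory element TCACNCCAC. No motif overlapped another in the windows shown. The NF-Y box, bound by a factor that works together with SREBPs at many sterol-responsive promoters, was found once in the Srebf2 window, once in the Insig1 window and 3 times in the Insig2 window furthest upstream. It was absent from the other 2 Insig2 windows. Mylip held 3 copies, Npc1l1 held 1 and Scap none, and 37.4% of all 32851 windows hold at least 1. The E-box was found once in the Insig1 window and in each of 2 overlapping Scap windows (7.15% of all windows hold it), and the sterol regulatory element in none of the 9 (1.24% of all windows). These counts describe letters in the windows alone, and the windows were not tied to the transcripts that the probes detect.

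Insig2 had 2 probes, each to a different RefSeq transcript of the gene. On the bright probe the replicates read 15.98 and 15.85 in M3, 15.99 and 16.09 in M4, and 16.27 and 16.20 in M8. In females they read 15.80 and 15.97 in F3, 15.94 and 15.92 in F4, and 15.50 and 15.95 in F8. Both M8 values were above all others, and replicate 1 of F8 was the lowest of the 12 values while replicate 2 of F8 lay among the younger groups.

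In M8/F8 the log2 ratios of Insig2 were 0.79 and 0.40, and the fitted 0.60 ± 0.14 was called (1.51-fold, adjusted p = 0.0317), with a ratio close to the threshold of 1.5. The second probe gave 0.74 and 0.46 with a fitted 0.60 ± 0.08 (1.52-fold, adjusted p = 0.00479). In M3/F3 and M4/F4 the fitted values were 0.11 and 0.17 and did not pass (adjusted p = 0.776 and 0.538). In males the ratio was 0.42 and 0.29 on the arrays of M8/M3 (fitted 0.36, adjusted p = 0.154), and in F8/F4 it was -0.52 and -0.16 (fitted -0.34, adjusted p = 0.173). On the second probe the F8/F4 value, -0.35, passed the adjusted p (0.0378) without the ratio. The difference between the sexes in the change from 3 to 8 wk was 0.50 ± 0.20 (adjusted p = 0.242). The call in M8/F8 rested on array 1: without it the bright probe gave 0.38 (adjusted p = 0.273), and with the slide as a block the adjusted p was 0.0827. The same array stood apart from array 2 on genes of the daily clock, with log2 ratios of -3.05 against 0.09 for Ciart, -1.65 against 0.47 for Dbp and 1.75 against -0.01 for Npas2. The part of the clock in the Insig2 value was not tested.

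The log2 ratios most like those of Insig2 over the 14 arrays were those of Tsc22d1 (r = 0.949), Bet1 (r = 0.940) and Nfil3 (r = 0.922), found among the same 3085 genes. Nfil3 encodes a transcription factor of the circadian clock and Bet1 a protein of vesicle transport from the endoplasmic reticulum to the Golgi apparatus.

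Insig1, the anchor that is itself a target of SREBP2, had 1 probe. In males the replicates read 14.82 and 14.76 in M3, 14.14 and 14.53 in M4, and 13.89 and 14.30 in M8. In females they read 14.09 and 14.12 in F3, 14.53 and 14.14 in F4, and 15.03 and 14.54 in F8. The male and female values did not overlap at 3 wk, where males were higher, or at 8 wk, where females were higher, and they overlapped at 4 wk.

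In M3/F3 the log2 ratios of Insig1 were 0.75 and 0.48 (fitted 0.61 ± 0.26, adjusted p = 0.186), and in M4/F4 they were -0.42 and 0.38. In M8/F8 they were -1.10 and -0.33 (fitted -0.71, adjusted p = 0.13), and in M8/M3 they were -1.03 and -0.33 (fitted -0.68, adjusted p = 0.145). In F8/F3 both arrays were positive, 0.85 and 0.41 (fitted 0.63, adjusted p = 0.177), and F8/F4 gave 0.47 and 0.40. The change from 3 to 8 wk differed between the sexes by -1.31 ± 0.37, with a 95% interval of -2.18 to -0.44, and did not pass after adjustment over all probes (adjusted p = 0.112). Taken from the sex comparisons the same contrast was -1.33. With the 6 group means in place of 7 comparisons Insig1 was called in M8/F8, M8/M3 and F8/F3 and in this contrast. That fit, like the main fit of 7 comparisons, treats any repeated use of a pool as independent. The error-weighted average called Insig1 in M3/F3, M8/F8, M8/M3 and F8/F3 and in this contrast. Leaving out 1 array moved the contrast to between -1.82 and -0.80, M8/M3 to -0.18 without array 1 and -1.19 without array 2, and M8/F8 to between -1.07 and -0.36.

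Srebf2, which encodes SREBP2 itself, was lower in males from 4 wk on. The replicates read 10.08 and 10.14 in M3, 9.62 and 9.83 in M4, and 9.77 and 9.91 in M8. In females they read 10.06 and 10.16 in F3, 10.05 and 10.07 in F4, and 10.15 and 10.27 in F8. All 4 values of M4 and M8 lay below all 8 others.

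In M3/F3 the log2 ratios of Srebf2 were 0.06 and -0.05, on either side of 0. In M4/F4 they were -0.41 and -0.23 (fitted -0.32 ± 0.07, adjusted p = 0.0193), and in M8/F8 they were -0.33 and -0.50 (fitted -0.42 ± 0.07, adjusted p = 0.00704). In M8/M3 they were -0.32 and -0.27 (fitted -0.30, adjusted p = 0.0263), whereas M8/M4 gave 0.09 and 0.03 and F8/F3 gave 0.09 and 0.15, neither of which passed (adjusted p = 0.707 and 0.303). With the slide as a block M4/F4 and M8/M3 no longer passed (adjusted p = 0.0614 and 0.0755), and neither did M4/F4 without array 1 (0.168), M8/M3 without either array (0.144 and 0.153) and M8/F8 without array 2 (0.0735). None of these ratios was past 1.5-fold; the M8/F8 difference was 1.34-fold. The indirect M4/M3 value, the difference of M8/M3 and M8/M4, was -0.36 (adjusted p = 0.168), and F4/F3 was -0.04. The sexes differed in the change from 3 to 8 wk by -0.42 ± 0.09 (adjusted p = 0.0591). A second, much dimmer Srebf2 probe, with a median processed intensity of 60.0 against 515, passed in M8/M3 (fitted -0.48, adjusted p = 0.0332, arrays -0.85 and -0.11) and did not pass in M4/F4 (-0.10, adjusted p = 0.753) or M8/F8 (-0.24, adjusted p = 0.234).

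Scap, which encodes the escort of SREBPs, rose with age in both sexes. Its 1 probe read 14.33 and 14.35 in M3, 14.43 and 14.27 in M4, and 14.69 and 14.61 in M8. In females it read 14.45 and 14.38 in F3, 14.52 and 14.62 in F4, and 14.88 and 14.79 in F8. Within each sex the values at 8 wk did not overlap with the values at 3 wk or at 4 wk.

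The log2 ratios of Scap were 0.35 and 0.36 in M8/M3 (fitted 0.35 ± 0.06, adjusted p = 0.00844) and 0.42 and 0.45 in F8/F3 (fitted 0.43 ± 0.06, adjusted p = 0.00371). M8/M4 gave 0.19 and 0.31 (fitted 0.25, adjusted p = 0.0285) and F8/F4 gave 0.28 and 0.15 (fitted 0.21, adjusted p = 0.0533). The change from 3 to 8 wk differed between the sexes by -0.08, with a 95% interval of -0.28 to 0.11 (adjusted p = 0.694 in limma). Males were lower than females at 4 wk by a log2 ratio of -0.22 (adjusted p = 0.0473), from arrays of -0.10 and -0.35. Over the alternatives run this value lay between -0.34 and -0.10. The M8/F8 arrays gave -0.14 and -0.15 and did not pass (adjusted p = 0.153). No Scap ratio passed 1.5-fold. M4/F4 and M8/M4 no longer passed with the slide as a block (adjusted p = 0.0932 and 0.0657), M8/M3 and M8/M4 did not pass without either of their arrays (0.0548 to 0.211), and F8/F3 passed under all alternatives run.

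Stard4 carries sterol between membranes inside the cell and is a target of SREBP2. Its bright probe read between 13.00 and 13.26 in M3 and M4, 13.10 and 13.38 in M8, between 13.15 and 13.39 in F3 and F4, and 13.45 and 13.49 in F8. The female values at 8 wk were the highest on this probe, and no comparison passed the adjusted p. The lowest log2 ratio was in M8/F8, from arrays of -0.37 and -0.03 (fitted -0.20, adjusted p = 0.184), and the highest in F8/F4, 0.23 (adjusted p = 0.126). The dimmer probe differed from it in M8/M3, with -0.43 and -0.33 (fitted -0.38, adjusted p = 0.118) against -0.11 and 0.06. In F8/F3 it gave -0.06 and -0.32 (fitted -0.19, adjusted p = 0.456), where the bright probe had a fitted 0.12, and its F8 values, 10.80 and 10.75, lay below both of F3 (mean 11.02).

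Mylip, the LXR-induced ligase, read 10.68 and 10.79 in M3, 10.95 and 10.97 in M4, and 10.95 and 10.99 in M8. In females it read 10.84 and 10.87 in F3, 11.08 and 11.18 in F4, and 11.01 and 11.20 in F8. In each sex both values at 3 wk lay below those at 4 and 8 wk. The log2 ratio was 0.26 and 0.31 in M8/M3 (fitted 0.28 ± 0.08, adjusted p = 0.0768) and 0.11 and 0.44 in F8/F3 (fitted 0.27, adjusted p = 0.0832), so that neither passed. M8/M4 and F8/F4 were 0.02 and 0.00, and the indirect M4/M3 and F4/F3 were both 0.27 (adjusted p = 0.431 and 0.513). Males were lower in all 3 comparisons between the sexes, by fitted values of -0.20, -0.15 and -0.15 that did not pass (adjusted p = 0.201 to 0.336). The second probe of Mylip was faint, with a median processed intensity of 42.3 against 898, and none of its 7 comparisons passed.

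Npc1l1, the intestinal sterol importer, was well above background in 1 of 28 channels. Its processed intensity ran from 2.55 to 12.3 (median 5.78), so that no level, fold or test is given for it. Markers of intestine behaved unevenly on these arrays: Alpi was well above background in 2, Cdx2 in 3 and Lct in 1 of 28 channels, whereas Vil1 was well above background in 22 and Fabp2 in 28.

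The direct tests of whether age acted differently in males and females gave few differences in these genes. From 3 to 8 wk (M8/M3 minus F8/F3) 0 of 7 were called by limma, 4 had an unadjusted p below 0.05 (26.3% of all genes), the error-weighted average called 1 and 1 passed the adjusted p (Scarb1), whereas 3.38% of all genes were called in either direction and 6.52% passed the adjusted p. From 4 to 8 wk 0 were called by limma or by the error-weighted average, 0 passed and 2 had an unadjusted p below 0.05 (17.6% of all genes), and over all genes 1.33% were called and 2.10% passed the adjusted p. For the indirect M4/M3 and F4/F3, 0 of 7 were called by limma and by the error-weighted average, 1 in each had an unadjusted p below 0.05 (17.4% and 14.3% of all genes), and 0.292% and 0.0931% of all genes were called.

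**Figure D3:**
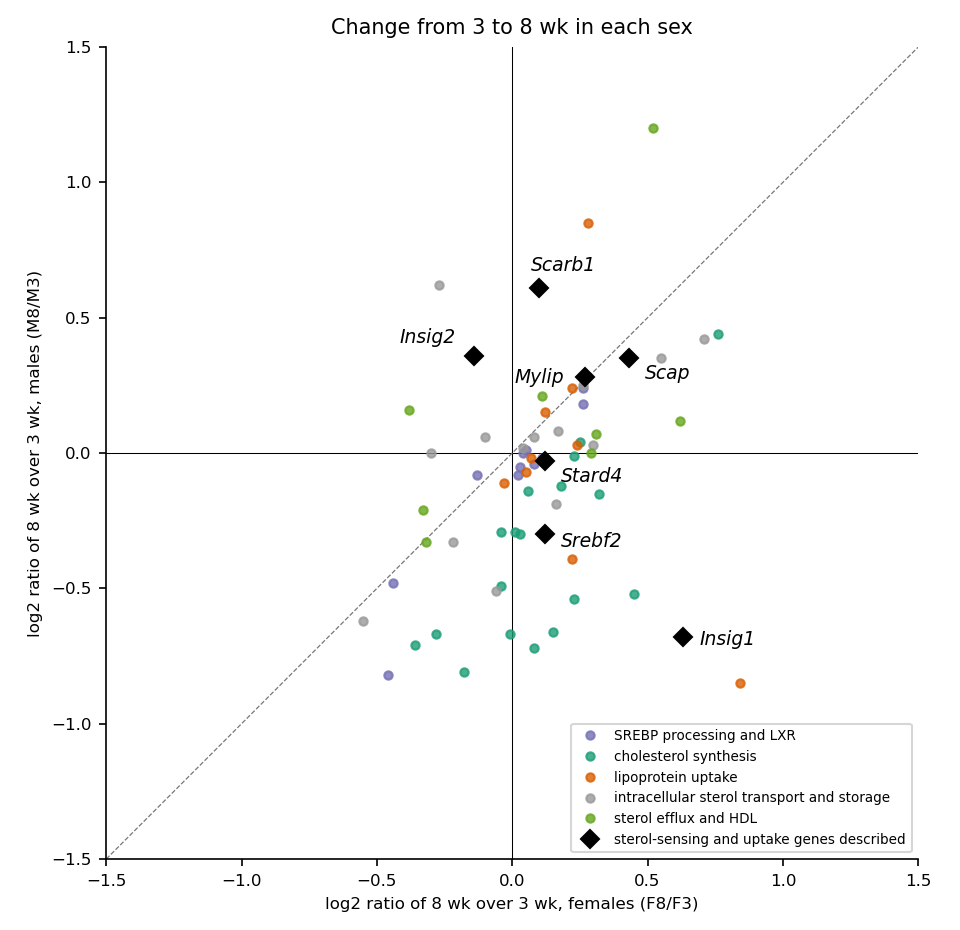
Log2 ratio of 8 wk over 3 wk in females (x axis) and in males (y axis) for the 7 genes (black diamonds) and 60 other genes of sterol metabolism, coloured by list; the dashed line marks equal change. Insig1 lies at 0.63 and -0.68, Scarb1 at 0.10 and 0.61, and all 18 genes of cholesterol synthesis (dark green) lie below the dashed line.

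The 60 other genes of sterol metabolism, on 5 lists, were all on the array and testable. Among them 0 were called in M3/F3 by limma, 2 were lower in M4/F4 (3.33%, against 0.971% of all genes), 2 were higher and 4 lower in M8/F8, and 3 were higher and 5 lower in M8/M3. In M8/F8 these were 3.33% higher and 6.67% lower, against 2.67% and 3.75% of all genes. In M8/M3 they were 5.00% and 8.33%, against 7.84% and 10.0% of all genes, so that the share called there was below that of all genes. In M8/M4, 3 were higher and 1 lower (5.00% and 1.67%, against 4.46% and 6.39% of all genes). Both female comparisons had 2 higher and 0 lower (3.33% higher, against 5.09% of all genes in F8/F3 and 2.29% in F8/F4). The age comparisons of males and females used different pools, whereas M8/F8 and M8/M3 both hold M8 RNA.

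Of 18 genes of cholesterol synthesis, the main targets of SREBP2, 0 were called higher and 2 lower in adult male than in adult female liver (11.1% lower, against 3.75% of all genes). No fitted value of the list was above 0 in M8/F8, and the median log2 ratio was -0.35 against 0.00 over all genes. The 8 hepatocyte markers had a median of -0.33 in the same comparison, and 4 of them passed the adjusted p at ratios short of the threshold (Alb -0.57, Cps1 -0.52, Apoc3 -0.45 and Tat -0.41). The 2 arrays stood apart for Alb (-0.01 and -1.13) and Apoc3 (-0.13 and -0.78). They lay closer for Cps1 (-0.64 and -0.39) and Tat (-0.48 and -0.34). Hmgcs1, a synthase of the early pathway, had log2 ratios of -0.88 and -0.81 (fitted -0.84 ± 0.15, adjusted p = 0.0106). The other call was Fdft1, squalene synthase, named here to complete the count (-0.65 and -0.53, fitted -0.59, adjusted p = 0.00546).

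At 3 wk 13 of 18 fitted values were above 0 and none was called (median 0.11), and at 4 wk Hmgcs1 and Msmo1 were called lower in males (both -0.61, adjusted p = 0.0354 and 0.00255; median of the list -0.20). In M8/M3, 4 of 18 were called lower (22.2%, against 10.0% of all genes) and none higher, with a median of -0.39. They were Fdps (-0.81, adjusted p = 0.0131), Mvd (-0.72, adjusted p = 0.0172), Pmvk (-0.67, adjusted p = 0.0092) and Lss (-0.67, adjusted p = 0.00868). In M8/M4 and in both female comparisons Msmo1, a methylsterol oxidase, was called higher (0.74, 0.76 and 0.63) and no other gene of the list was called. The median of the list was 0.10 in M8/M4, and in females it was 0.07 from 3 wk and 0.17 from 4 wk. Srebf2 and Insig1 also had negative fitted values in M8/F8 and M8/M3, while Stard4 had values of -0.20 and -0.03 there.

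**Figure D4:**
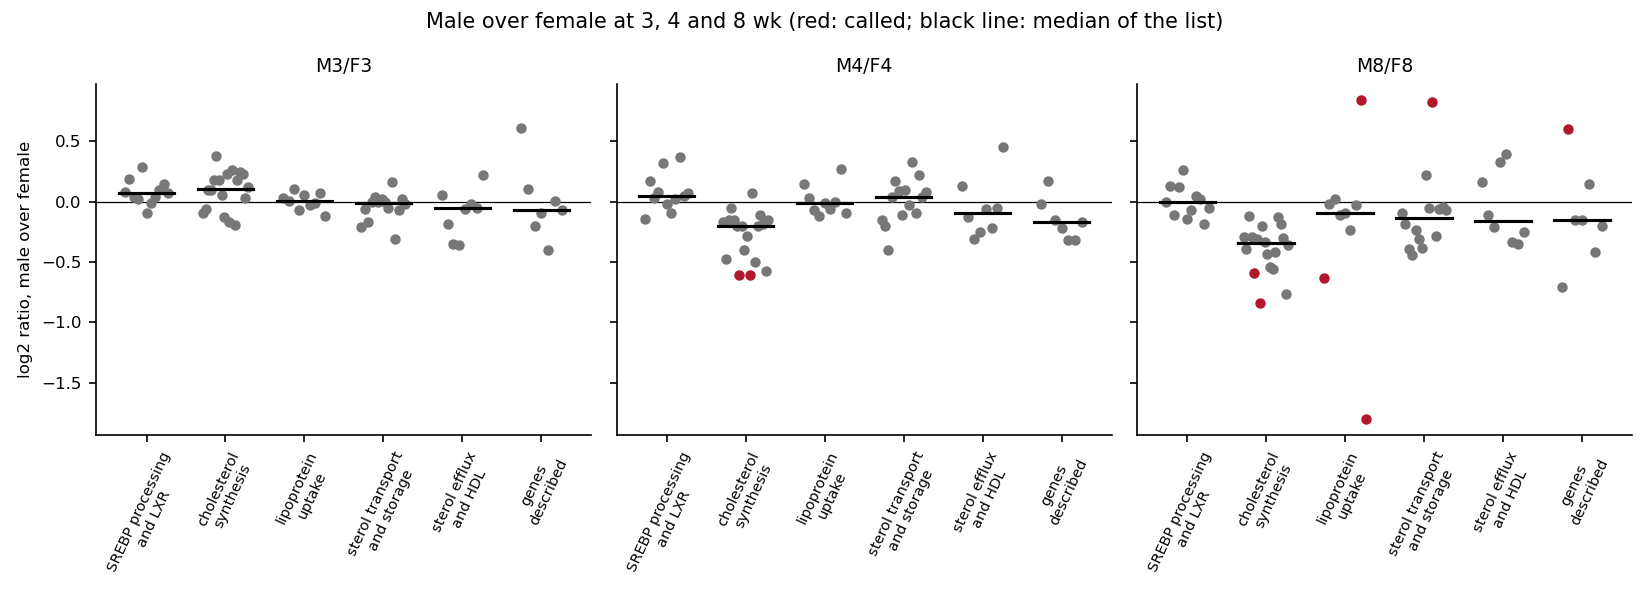
Log2 ratio of male over female (y axis) at 3, 4 and 8 wk (panels) for each gene of 5 lists of sterol metabolism and for the 7 genes described (x axis); red points were called and black lines are medians. The median of cholesterol synthesis moves from 0.11 at 3 wk to -0.20 at 4 wk and -0.35 at 8 wk.

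Among 9 genes of lipoprotein uptake, Vldlr, a receptor for triglyceride-rich particles, was lower in M8 than in F8 (-2.47 and -1.13, fitted -1.80 ± 0.39, adjusted p = 0.0241). Cd36, a fatty acid and lipoprotein receptor that macrophages and endothelium also express, was lower as well (-0.63, adjusted p = 0.00241), and Sort1, a sorting receptor for apolipoprotein B, was higher (0.84, adjusted p = 0.0165). Sort1 was also called higher in M8/M3 (0.85) and M8/M4 (0.88). No gene of the list was called in M3/F3, M4/F4 or either female comparison.

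Of 11 genes of SREBP processing and the LXR receptors, Srebf1, which encodes the lipogenic SREBP1, was called lower in M8/M3 (-0.71 and -0.92, fitted -0.82, adjusted p = 0.00584). Rnf145, a ligase of the reticulum membrane, was called lower in M8/M4 (-0.61, adjusted p = 0.00382), and no other call was made on this list. Of 14 genes of sterol transport and storage, Scp2, a sterol carrier and peroxisomal thiolase, was higher in M8/F8 (0.83, adjusted p = 0.000241) and M8/M3 (0.62, adjusted p = 0.000602). Npc1, which exports cholesterol from lysosomes and is a relative of NPC1L1, was called higher in F8/F3 (0.71, adjusted p = 0.0129) and F8/F4 (0.64, adjusted p = 0.019). Of 8 genes of efflux and HDL, Abcg8, a subunit of the biliary sterol exporter, was called higher in M8/M3 (1.20, adjusted p = 0.000244) and M8/M4 (0.72, adjusted p = 0.00135), the 2 comparisons in which Scarb1 was called.

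Markers of other cells and of time moved with some of these groups. Of 6 erythroid markers, 4 were called lower at 8 wk (66.7%) in every age comparison, against 3.73% to 10.0% of all genes. Their medians were -1.56 and -1.28 in males (from 3 and 4 wk) and -1.3 and -1.32 in females. Alas2 was called higher in both age comparisons of males (1.37 and 0.98). Of 7 testable lymphocyte markers, 2 were called lower from either age in males (28.6%) and 0 in females. Bile duct markers had calls in both directions in every age comparison. Of 7 Kupffer cell and macrophage markers, 4 were called lower in M8/F8 (57.1%), 2 in M8/M3 and 2 in M8/M4 (28.6% in each), against 3.75%, 10.0% and 6.39% of all genes, and 7 of 7 fitted values were negative in each. Marco alone was called lower in M4/F4 (-0.69), F8/F3 (-1.58) and F8/F4 (-1.28), 14.3% in each, against 0.971%, 6.65% and 3.73% of all genes. No fitted value was above 0 in M3/F3, M4/F4 or F8/F4, and 1 was in F8/F3. The mean normalised log2 intensity over the list was 11.97 to 12.29 in M8, 12.67 to 12.81 in F8, 12.71 to 12.88 in the younger males and 13.06 to 13.17 in the younger females, and Marco had the lowest ratio in M8/M3 (-2.20). All 7 were testable in every comparison. Macrophages and sinusoidal endothelium also express Scarb1, which rose in M8/M3 and M8/M4, where the macrophage list was lower. In M3/F3 and M4/F4, where Scarb1 was lower in males, the macrophage list was lower too (medians -0.28 and -0.27). In M8/F8, where the Scarb1 difference did not pass, the median of that list was -0.59. Of 8 markers of sinusoidal endothelium, 1 was called lower in each of both comparisons (12.5%, against 10.0% and 6.39% of all genes), with a median of -0.13. In whole liver, fewer cells of a type and less RNA per cell cannot be told apart. Of 12 genes of the daily clock, 4 or 5 (33.3% or 41.7%, against 2.29% to 7.84% of all genes) were called higher at 8 wk in each age comparison of either sex, among them Dbp (2.75 in M8/M3 and 2.98 in F8/F3). Clock genes called lower numbered 1 in M8/M3 (Per2, a ratio of 0.499), 1 in M8/M4 (Npas2, -1.66) and 2 in F8/F4 (Npas2, -2.09, and Arntl, -1.27). In M8/F8 only Per1 was called (-1.20). The mean over the clock list was 10.56 to 11.15 in the 8 wk groups and 9.86 to 10.12 in the younger ones, and sterol synthesis in liver is known to follow the time of day and feeding. Of 8 genes that respond to feeding or fasting, 3 were called lower in M8/M3 (37.5%, against 10.0% of all genes), the comparison in which 4 synthesis genes and Srebf1 were called lower. They were Pnpla3 (-3.28), Acly (-1.01) and Fasn (-0.96), which are known to rise with feeding, and Pck1, an enzyme of gluconeogenesis, was called higher (1.36). In M8/F8 Pnpla3 gave -1.52 and -1.45 and did not pass (adjusted p = 0.0814). Calls on this list were also made in M3/F3 (Acly, 0.65, and Pck1, -1.19), M4/F4 (Ppargc1a, -1.10), M8/M4 (Pnpla3, -1.74, and Ppargc1a, 0.81) and F8/F3 (Ppargc1a, 0.82). The mean over the feeding list was 13.15 to 13.22 in M8, 13.36 to 13.57 in F8 and 13.06 to 13.56 in the younger groups of either sex. The part of these markers in the results for Scarb1, Insig2, Srebf2, Scap and the synthesis genes was not tested.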

How the data were processed

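Liver RNA pools of CD-1 mice were compared on 14 2-colour Agilent whole mouse genome arrays. The authors scanned them with Feature Extraction 10.7.1.1, which subtracted background and applied linear and LOWESS dye normalization. The deposited files hold the intensity of each spot in both channels, in arbitrary units, and the ratio as log10 of red over green with its modelled error. The deposited series table holds the same log10 ratios, and the largest difference was 0. The direction of each ratio was taken from the dyes in the labels. The array design names build mm9, no coordinates of which are used.

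The log10 ratios were put on the log2 scale with males, or the 8 wk group, as numerator. Spots of a probe were averaged and non-uniform outliers (0 to 10 per array) left out. limma 3.58.1 in R 4.3.3 fitted 1 coefficient for each of 7 comparisons and 1 dye term. Benjamini-Hochberg adjustment covered all probes of the 7 comparisons together, and all probes within each contrast between comparisons. A prior of 0.856 degrees of freedom left 6.86 per test. The replicate number is tied to the dye within each comparison. Levels are log2 intensities after normexp (offset 50), loess and quantile normalization of average intensity, averaged per group and replicate number, as a description; these averages and the fit with shared pools assume that a number marks the same pool in every comparison, which is not stated in the sources used here. Levels of different genes were not compared.

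The brightest probe stands for a gene, and further probes of the 8 genes are described. Other pathway genes were named where called in at least 1 direct comparison, by largest absolute log2 ratio, at most 6 per list and 20 in all; some genes first put on the lists are not reported here and are in no count of them. Genes most like a called gene were the 3 with the highest r among genes well above background everywhere with an SD of at least 0.3. The genes, lists and tests were chosen with earlier results of these data known. The error-weighted average, at an unadjusted p below 1e-04, stands in for the Rosetta model of the study, which was not used here. The 8 genes, 7 of them testable, gave 13 probes. Promoter windows are RefSeq's, on GRCm38.p6, for 6 of the 8 genes. The p-values rest on the spread between the arrays of a comparison after the dye term, which holds differences between pools and array noise together. The main fit treated the 14 arrays as independent, although groups, and possibly pools, recur on them.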

Additional observations from a re-analysis of the deposited data

Results flagged for a closer look

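Differences between the sexes in the change with age passed the adjusted p for Scarb1 and were called for 4 of 60 genes of the pathway lists from 3 to 8 wk (6.67%, against 3.38% of all genes) and for 1 from 4 to 8 wk (1.67%, against 1.33%), by the test of the difference itself in limma. Scarb1 changed from 3 to 8 wk by 0.61 on the log2 scale in males and 0.10 in females, a difference of 0.51 ± 0.10 (adjusted p = 0.0406) that did not pass the ratio threshold. Its adjusted p was 0.0569 with the slide as a block, 0.0597 with the replicate number as a block and 0.0534 to 0.176 without any 1 of the 4 arrays. The same difference was past the ratio threshold for Scp2 (0.89, adjusted p = 0.00238), which rose in males (0.62), against -0.27 in females. Abcg8 had a difference of 0.68 (adjusted p = 0.0182), from 1.20 in males and 0.52 in females. Fdft1 had -0.77 (adjusted p = 0.0206), from -0.54 and 0.23. Cd36 had -0.60 from 3 to 8 wk (adjusted p = 0.0279) and -0.73 from 4 to 8 wk (adjusted p = 0.0282), where males gave -0.43 and females 0.30. The M8/M3 and F8/F3 arrays lay on different slides, scanned on different days; M8/M4 and F8/F4 shared slides.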

How the results depend on the processing

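The call of Scarb1 in M8/M4 held in 16 of 16 alternatives (0.63 to 0.80) and that in M8/M3 in 15 of 16 (0.48 to 0.74); it was lost without M8/M3 replicate 1 (0.48). The call of Insig2 in M8/F8 held in 13 of 16 and was lost with the slide as a block (adjusted p = 0.0827), with normexp and loess (0.57, under the ratio threshold) and without M8/F8 replicate 1 (0.38). With the replicate number as a block beside the dye term, the adjusted p of Insig2 in M8/F8 was 0.0483 and that of the Scarb1 difference between the sexes from 3 to 8 wk 0.0597, and the counts of called genes were 0 in M3/F3, M4/F4, F8/F3, F8/F4 and 1 in M8/F8, M8/M3 and M8/M4; a number names the pair of pools on 1 array and is tied to the dye within a comparison, so no check of pairing across comparisons apart from the dye was made. That Scarb1 difference ranged from 0.38 to 0.64 with adjusted p from 0.00039 to 0.176, and was 0.0569 with the slide as a block and 0.0773 with shared pools in the covariance (62 missing values imputed).

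Without the ratio threshold the genes called between the sexes numbered 1 at 3 wk, 3 at 4 wk and 2 at 8 wk, in males 3 in M8/M3 and 2 in M8/M4, in females 1 in F8/F3, and 1 in the 3 to 8 wk difference. With 6 group means they were 2 in M8/F8, 2 in M8/M3, 1 in F8/F3 and 1 in that difference, and by the error-weighted average 1 in M3/F3, 2 in M8/F8, 2 in M8/M3, 1 in F8/F3 and 1 in that difference; Insig1 made up the additional calls of these 2 alternatives. Leaving out an array gave 0 to 1 in M8/F8 and M8/M3, and the slide as a block or normexp gave 0 in M8/F8. Leaving dim probes out before the fit, chosen after seeing the data, changed no count of the 8 genes.

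Signs reversed only for uncalled values. With normexp and loess these were Srebf2 M3/F3 (-0.01), Mylip F8/F4 (-0.01) and the Mylip difference from 3 to 8 wk (-0.03). With the mean of all probes they were Srebf2 M3/F3 (-0.02), M8/M4 (-0.11) and F4/F3 (0.06), Stard4 F8/F3 (-0.04), and Mylip M8/M4 (-0.11) and F8/F4 (-0.12). Leaving out an array gave ranges of -0.03 to 0.04 for Srebf2 M3/F3, Srebf2 M8/M4 0.00 to 0.12, Srebf2 F4/F3 -0.13 to 0.05, Insig1 M4/F4 -0.39 to 0.35, Insig2 M4/F4 -0.01 to 0.36, Insig2 M8/M4 -0.05 to 0.36, Scap (difference from 4 to 8 wk) -0.06 to 0.14, Stard4 M8/M3 -0.16 to 0.11, Stard4 (difference from 4 to 8 wk) -0.12 to 0.03, Mylip M8/M4 -0.01 to 0.04, Mylip F8/F4 -0.01 to 0.02, Mylip (difference from 3 to 8 wk) -0.14 to 0.15 and Mylip (difference from 4 to 8 wk) -0.01 to 0.03. The causes were not tested.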
